A study of Homo sapiens with 40 samples.

Results

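The genes described here are 41 chaperone and heat shock genes, out of 60279 genes listed in each count table, measured in single cells of T47D, a human luminal breast cancer cell line. They were chosen by name, as the cytosolic HSP70, HSP90, HSP110, J-domain, BAG, TRiC and prefoldin genes with their co-chaperones, the small heat shock protein HSPB1 and the heat shock factor HSF1. The rule uses names and no measured value, although earlier results of these data were known when it was set. All 41 were found in the tables by their Ensembl identifiers. The name "cytosolic" does not cover 3 of them, since HSPA9, HSPD1 and HSPE1 encode the HSP70 and the chaperonin pair of the mitochondrial matrix. They were kept and are described as a group of their own.

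The study compared full-length single-cell RNA sequencing protocols on sorted T47D cells at passage 10. The groups were 13 cells prepared with the Genome & Transcriptome protocol (G&T, which separates mRNA from genomic DNA before cDNA synthesis), 13 with the SMART-seq HT kit (Takara) and 14 with the NEBNext Single Cell/Low Input kit (NEB). Cells were dissociated with TrypLE, gated as live, EpCAM and CD49f positive and CD45 and CD31 negative, and the labels name no heat shock or other treatment. Leaving out 7 wells (C2 and F1 of G&T, C2 and F1 of Takara, and B2, F1 and F2 of NEB), 11 cells of each protocol remained, and these 33 cells are described below. Cells of a further protocol, SMART-seq3, are not part of this description.

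Plate, sequencing run and protocol coincided, so their shares in a difference cannot be told apart. Each protocol stands as 1 sample, cells within it do not replicate it, and comparisons between protocols carry no p-value. Values are read counts scaled to the same total of reads on genes (CPM), either in 1 cell or pooled, meaning summed over the 11 cells. The reads on genes ranged from 658154 to 1166633 per cell in G&T, from 818512 to 1287911 in Takara and from 624772 to 963816 in NEB. There are no molecular identifiers, so reads include PCR copies, and the 95% Poisson intervals and the limits for a count of 0 cover counting error only. The epithelial and luminal genes KRT8, KRT18, KRT19, EPCAM, CDH1, ESR1, PGR, GATA3 and FOXA1 had reads in at least 10 of 11 cells under all 3 protocols, although KRT8 was at 84.8 CPM in NEB against 4237 in G&T and 5234 in Takara, and TFF1 was found in 2 NEB cells. Of the genes taken as foreign to the line, VIM, FN1 and ACTA2 reached at most 30.9 CPM pooled, and PTPRC and PECAM1 at most 1.26. Some of them were still widely detected. ACTA2 had reads in all 11 Takara cells, at up to 141 CPM, and FN1 in 9 G&T, 10 Takara and 5 NEB cells.

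Chaperones bind proteins that are not yet folded or have lost their fold. HSP70 proteins hold short exposed stretches in an ATP-driven cycle that J-domain proteins start and that BAG and HSP110 proteins reset by nucleotide exchange. HSP90 takes over clients at a later stage, among them steroid receptors and kinases, with co-chaperones that hand over the client, set the speed of its ATPase or hold its closed form. The TRiC chaperonin folds actin and tubulin inside a closed chamber, to which prefoldin delivers them. HSF1, held inactive in unstressed cells, binds heat shock elements in the promoters of many of these genes when unfolded protein builds up.

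Heat shock elements are inverted repeats of the 5 bases nGAAn. The genes were chosen by name, without their sequence, but many are named for heat shock. A high share of matches among them is therefore no independent finding. A strict match of 3 units was searched, GAANNTTCNNGAA or TTCNNGAANNTTC (the reverse complement of each other, so both strands are covered), in RefSeq windows of 250 bases before to 50 bases after each start on GRCh38. Windows were given for 36 of the 41 genes (CCT6A, HSF1, FKBP4, ST13 and PFDN2 had none). A match lay in 7 of the 36, or 19.4%, against 0.608% of all 27305 genes with a window. The 7 genes are HSPA8, HSP90AA1, HSP90AB1, HSPD1, CHORDC1, DNAJB6 and DNAJA1, the last with its match just after the start. A match is a description of these letters. Of the heat-inducible genes of the list, HSP90AA1 had a match. HSPA1A, HSPA1B, DNAJB1, HSPH1, BAG3 and HSPB1 had no strict match in their windows. The parts of 5 windows that no transcript carries as untranslated sequence are given below with the matches in capitals, 5′ to 3′ on the strand of the gene. They lie at chr14:102087080-102087172 (minus strand, HSP90AA1), chr6:44247738-44247865 (plus, HSP90AB1), chr11:123062353-123062386 (minus, HSPA8), chr11:90223078-90223149 (minus, CHORDC1, with overlapping matches) and chr7:157336833-157336925 (plus, DNAJB6). The HSPA8 window holds 2 matches, and the second lies outside the part printed.
HSP90AA1: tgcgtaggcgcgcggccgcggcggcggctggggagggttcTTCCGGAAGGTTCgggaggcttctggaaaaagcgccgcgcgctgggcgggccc
HSP90AB1: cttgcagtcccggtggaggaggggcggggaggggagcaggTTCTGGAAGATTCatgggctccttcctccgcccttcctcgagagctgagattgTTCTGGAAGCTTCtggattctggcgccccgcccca
HSPA8: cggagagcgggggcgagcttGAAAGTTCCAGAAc
CHORDC1: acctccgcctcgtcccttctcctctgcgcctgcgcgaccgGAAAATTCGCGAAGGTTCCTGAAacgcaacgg
DNAJB6: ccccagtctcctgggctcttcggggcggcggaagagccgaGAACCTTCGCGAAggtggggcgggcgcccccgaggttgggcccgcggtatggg

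As a whole, the chaperone genes were among the better detected genes of these cells. Of the 41, 40.4 ± 1.03 (SD, n = 11 cells) had at least 1 read in a G&T cell, 40.6 ± 0.505 in a Takara cell and 32.8 ± 2.23 in an NEB cell. These are 98.4%, 99.1% and 80.0% of the list, where the 11242 genes at 5 CPM or more in any protocol were detected at 83.4%, 86.1% and 43.5% per cell. The genes with reads in every cell numbered 37 under G&T, 40 under Takara and 21 under NEB. These are 90.2%, 97.6% and 51.2% of the list, against 49.5%, 58.5% and 12.3% of the same 11242 genes. The chaperone genes were also more abundant than most, with a median pooled level of 140.2 CPM in G&T, against 24.6 for the tested genes. In Takara the medians were 222 and 24.2 CPM, and in NEB 139 and 15.4. Together they took 1.77 ± 0.291% of the reads on genes of a G&T cell, 2.20 ± 0.448% of a Takara cell and 2.02 ± 0.391% of an NEB cell, ranges that overlapped between all 3 protocols.

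The same 5 genes had the highest level per kilobase of transcript under every protocol, namely HSP90AA1, HSP90AB1, HSPA8, HSPB1 and PFDN5, although their order differed. These 5 held 59.4% (G&T), 53.1% (Takara) and 62.8% (NEB) of the chaperone reads. DNAJB4, a J-domain gene, was among the lowest, at 1.16 (G&T), 2.18 (Takara) and 2.16 CPM per kb (NEB). In NEB, CDC37 (1.86 CPM per kb), HSF1 (0.118) and BAG3 (no read) stood lower still.

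**Figure D1:**
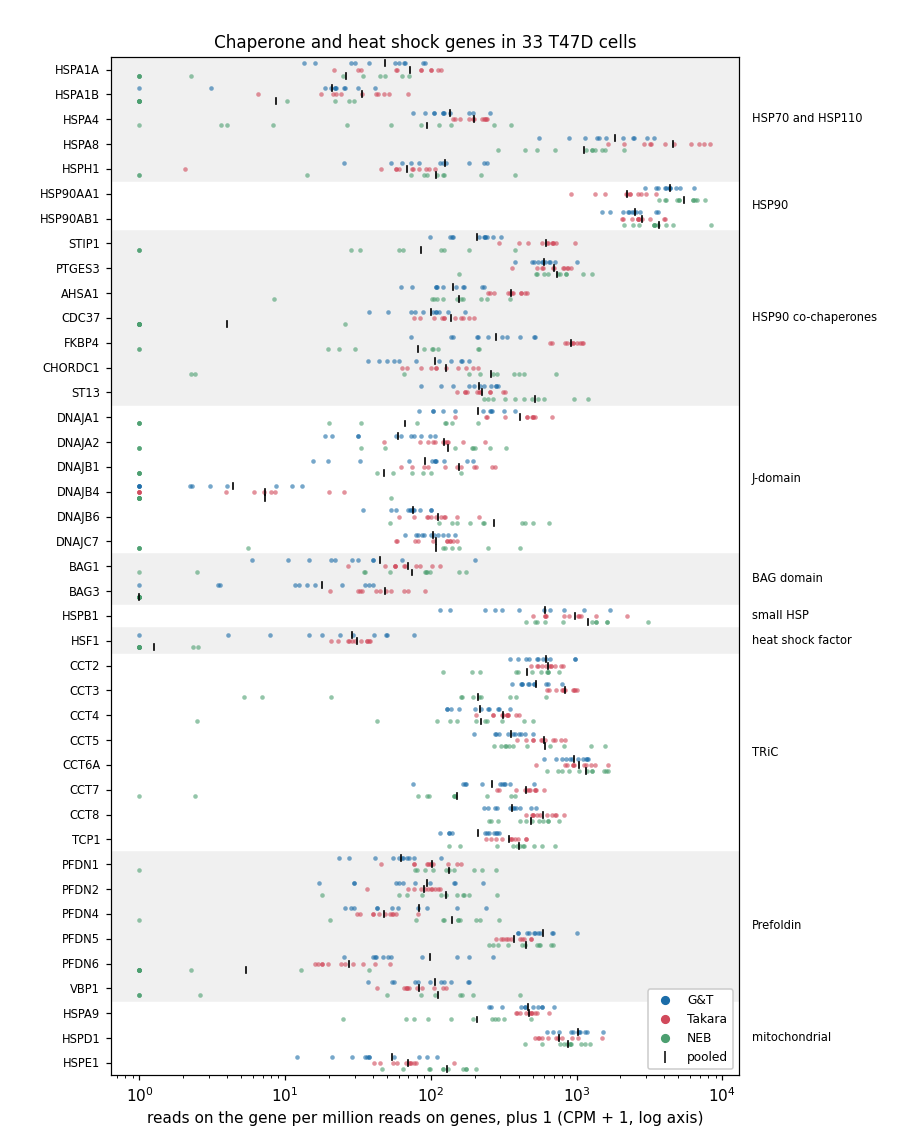
CPM of reads on genes, plus 1, on a log axis, for each of the 41 genes in each of the 33 cells, coloured by protocol and grouped by role, with a black tick at the pooled level. HSP90AA1 lies at 911 CPM or more in every cell, while BAG3, CDC37, HSF1, PFDN6 and DNAJB4 sit at 1 on the axis (no reads) in most or all NEB cells.

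HSPA8 (ENSG00000109971, chromosome 11, 123057489 to 123063230, minus strand) encodes the constitutive cytosolic HSP70. It ran from 1651 to 8236 CPM over Takara cells with a median of 4048, from 553 to 3390 over G&T cells with a median of 1590, and from 286 to 2122 over NEB cells with a median of 1268. Takara cells were the highest as a group, but their lowest cells reached into the range of both other protocols. Pooled, HSPA8 stood at 4570 CPM in Takara (95% Poisson interval 4531 to 4609), 1828 in G&T (1801 to 1855) and 1122 in NEB (1099 to 1146). The log2 ratio of G&T over Takara was -1.32, past 2-fold, and HSPA8 was 4.07-fold higher in Takara than in NEB.

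HSPA1A and HSPA1B encode the heat-inducible HSP70 and lie next to each other on chromosome 6 (31815543 to 31817946 and 31827738 to 31830254, both plus strand). Their coding sequences of 1923 bases differ at 4 positions, counted from the A of the start codon with the HSPA1A base first (G1710T, G1860C, C1905T and A1920G), none of which changes a residue. Of the 150-base windows of the HSPA1A transcript, 69.6% occur unchanged in HSPA1B, and 66.1% the other way. A read inside such a window maps equally well to both genes, so the split between the genes is uncertain in all 3 tables. The tables hold multimapping reads as a category outside the gene counts, so reads inside such windows may be missing from both genes and their levels may be too low. The ends of both coding sequences, from base 1850 to base 1923, show how little there is to tell them apart, with the differing bases in capitals.
HSPA1A: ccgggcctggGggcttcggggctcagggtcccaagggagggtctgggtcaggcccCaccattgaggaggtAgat
HSPA1B: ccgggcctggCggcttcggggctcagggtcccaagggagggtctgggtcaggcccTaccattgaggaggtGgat

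With that limit, HSPA1A ran from 12.6 to 90.0 CPM over G&T cells with a median of 55.7, from 20.6 to 116 over Takara cells with a median of 84.3, and from 0 to 69.996 over NEB cells with a median of 24.01. HSPA1B was lower, with cells from 0 to 40.2 CPM in G&T around a median of 20.99, from 5.54 to 68.6 in Takara around 32.6, and from 0 to 28.5 in NEB, where 4 of 11 cells had reads. Both were called higher in Takara than in NEB, by 2.80-fold and 4.28-fold pooled, and HSPA1B was 2.60-fold higher in G&T than in NEB. The cell ranges overlapped in each of these comparisons. The constitutive HSPA8 exceeded HSPA1A per kilobase in each of the 33 cells, by a median of 39.9-fold in G&T cells and 68.7-fold in Takara cells, and by 37.8-fold in the 7 NEB cells with HSPA1A reads. No 150-base window of HSPA8 occurs in HSPA1A. If none of the reads in windows shared with HSPA1B were counted, these folds are too large. Scaled to the 30.4% of HSPA1A windows that HSPA1B does not hold, the medians were 12.2-fold, 20.9-fold and 11.5-fold, and the lowest cell with HSPA1A reads stood at 3.26-fold.

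HSPA4 and HSPH1 encode HSP110 proteins, the exchange factors of HSP70. HSPA4 stood at a pooled 135 (G&T), 198 (Takara) and 93.4 CPM (NEB), and its 2.12-fold gap between Takara and NEB fell short of 2-fold (log2 0.90) without NEB cell D1. HSPH1, which is heat-inducible, was lowest in Takara instead, at 67.6 CPM against 124 (G&T) and 108 (NEB), all within 2-fold. Its cells ran from 24.3 to 241 CPM in G&T with a median of 114, and from 1.05 to 106 in Takara with a median of 73.5. In NEB cells HSPH1 ran from 0 to 378 CPM with a median of 92.3, and 2 of the 11 cells had no read of it.

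The HSP90 pair differed between the protocols in which gene led. HSP90AA1 (ENSG00000080824, chromosome 14, 102080742 to 102139699, minus strand) encodes the stress-inducible cytosolic HSP90α and HSP90AB1 (ENSG00000096384, chromosome 6, 44246166 to 44253888, plus strand) the constitutive HSP90β. HSP90AA1 ran from 911 to 3486 CPM over Takara cells with a median of 2320, from 2952 to 6377 over G&T cells with a median of 4302, and from 3674 to 7611 over NEB cells with a median of 5070. Every NEB cell lay above every Takara cell, the only chaperone gene for which this held, where 2.08% of the 10500 genes tested between these protocols did the same. HSP90AA1 was 2.45-fold higher in NEB than in Takara and 1.96-fold higher in G&T than in Takara.

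HSP90AB1 varied less, with pooled levels of 2534 (G&T), 2806 (Takara) and 3677 CPM (NEB). Its cells ran from 1492 to 3598 CPM in G&T with a median of 2405, from 2038 to 4064 in Takara with a median of 2652, and from 2117 to 8312 in NEB with a median of 3415. Per kilobase, HSP90AA1 exceeded HSP90AB1 in 10 of 11 G&T cells and 7 of 11 NEB cells, and in 0 of 11 Takara cells. The ratio of HSP90AA1 to HSP90AB1 within a cell had a median of 1.43 in G&T (0.886 to 1.95), 0.591 in Takara (0.272 to 0.981) and 1.16 in NEB (0.597 to 2.25). Since this ratio is taken within a cell, it does not depend on how the cell's reads were scaled.

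**Figure D2:**
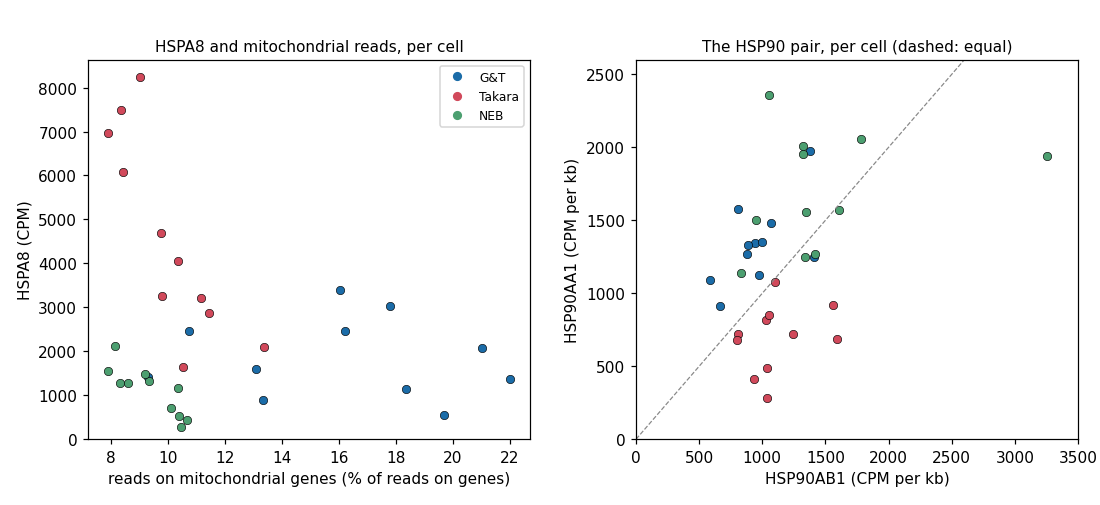
Left, HSPA8 level in CPM against the share of reads on mitochondrial genes in each of the 33 cells. Right, HSP90AA1 against HSP90AB1 in CPM per kb of transcript in the same cells, with a dashed line where both are equal. All 11 Takara cells lie below the line, and 10 of 11 G&T cells lie above it.

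The HSP90 co-chaperones held several of the wider gaps of the list, in both directions. FKBP4 (ENSG00000004478, chromosome 12, 2794970 to 2805423), the FKBP52 immunophilin of steroid receptor complexes, ran from 657 to 1113 CPM over Takara cells with a median of 941. It ran from 72.6 to 516 over G&T cells with a median of 244, and from 0 to 213 over NEB cells with a median of 88.5. Every Takara cell was above every cell of both other protocols. Pooled, FKBP4 was 3.29-fold higher in Takara than in G&T and 11.5-fold higher than in NEB.

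AHSA1, which speeds up the HSP90 ATPase, was likewise separated between Takara and G&T, at 244 to 459 CPM with a median of 360 against 61.7 to 232 with a median of 119. The separation was lost per read on nuclear protein-coding genes, with the lowest Takara cell at 279 CPM of such reads and the highest G&T cell at 281. AHSA1 was 2.51-fold higher in Takara than in G&T and 2.28-fold higher than in NEB, where its cells overlapped the Takara range. STIP1 (HOP), which bridges HSP70 and HSP90, ran from 292 to 969 CPM over Takara cells with a median of 632, from 97.3 to 301 over G&T cells with a median of 232, and from 0 to 379 over NEB cells with a median of 59.1. STIP1 was 2.99-fold higher in Takara than in G&T and 7.38-fold higher than in NEB.

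CDC37 (ENSG00000105401, chromosome 19, 10391133 to 10420121, minus strand), the co-chaperone that brings kinases to HSP90, was found in every G&T and Takara cell and in 1 of 11 NEB cells. It ran from 36.5 to 170.5 CPM in G&T with a median of 103, and from 75.6 to 196 in Takara with a median of 122. In NEB, all 24 reads came from cell D1, at 24.9 CPM, and the other cells had none. CDC37 was thus the only chaperone gene with every G&T cell above every NEB cell, where 4.52% of 10801 tested genes were. The count of such genes rose from 1 to 3 without G&T cell B2, when BAG3 and PFDN6 joined, and to 2 without G&T cell H1 (HSF1) or NEB cell H2 (PFDN6). The pooled levels of 98.9 CPM in G&T and 136 in Takara were 32.9-fold and 45.0-fold above the 3.01 CPM in NEB (95% Poisson interval 1.93 to 4.48).

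Other co-chaperones ran the opposite way. ST13 (HIP), an HSP70 cofactor, and CHORDC1 (morgana), an HSP90 cofactor, were highest in NEB, at 514 and 259 CPM pooled. ST13 was 2.41-fold higher in NEB than in G&T and 2.32-fold higher than in Takara, and CHORDC1 2.47-fold and 2.07-fold. The CHORDC1 gap to Takara rested in part on NEB cell D2, without which its log2 ratio was -0.80, short of 2-fold. Over NEB cells CHORDC1 ran from 1.26 to 715 CPM with a median of 267, so that its range held all of the Takara range of 62.1 to 209.8. PTGES3 (p23), which stabilises closed HSP90, showed no gap past 2-fold, at 593 CPM (G&T), 694 (Takara) and 728 (NEB).

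Among J-domain genes, DNAJA1, a partner of HSC70, was 6.22-fold higher in Takara than in NEB and 3.21-fold higher in G&T than in NEB. It ran from 146 to 674 CPM over Takara cells and from 82.0 to 380 over G&T cells, while 4 of 11 NEB cells had no read and the highest reached 210.1. DNAJB1, the heat-inducible HSP40, ran from 60.9 to 274 CPM in Takara with a median of 150, from 14.5 to 193 in G&T with a median of 105, and from 0 to 160 in NEB with a median of 41.5. It was 3.31-fold higher in Takara than in NEB.

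DNAJB6, which suppresses aggregation of polyglutamine proteins, ran the other way. It ran from 51.6 to 645 CPM over NEB cells with a median of 227, from 33.4 to 99.6 over G&T cells with a median of 72.1, and from 59.9 to 213 over Takara cells with a median of 107. DNAJB6 was 3.66-fold higher in NEB than in G&T and 2.42-fold higher than in Takara, with overlap in both. DNAJA2 was lowest in G&T (58.3 CPM against 121 in Takara and 130 in NEB). Both of its calls were lost without 1 cell, at log2 -0.87 without Takara cell G1 and -0.91 without NEB cell E1.

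DNAJB4 was at the edge of detection, with 32, 74 and 50 reads pooled over G&T, Takara and NEB. The 50 NEB reads all came from cell D1. Without that cell, its log2 ratio went from -0.73 to 2.13 for G&T over NEB and from 0.01 to 2.87 for Takara over NEB. No order between the protocols is read from it. DNAJC7 stood at 102 to 108 CPM in all 3 protocols, but 27.6% of its canonical transcript is shared with CNP and NKIRAS2. Whether such reads were counted depends on the strand setting, which is not given in the sources used here, and the same holds for every shared share below.

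BAG3 (ENSG00000151929, chromosome 10, 119651380 to 119677819, plus strand), the heat-inducible exchange factor of selective autophagy, was without a single read in NEB. It ran from 19.4 to 89.4 CPM over Takara cells with a median of 43.5, and from 0 to 39.0 over G&T cells with a median of 13.1, where cell B2 had no read. None of the 7973692 reads on genes of the NEB cells fell on BAG3, which allows up to 0.376 CPM. BAG3 was therefore at least 126-fold higher in Takara and at least 44.8-fold higher in G&T than in NEB, against 3 reads over the pooled cells, and 2.81-fold higher in Takara than in G&T. BAG1, which carries the same domain, had no such gap, at 43.8 CPM (G&T), 68.3 (Takara) and 72.6 (NEB). In G&T, cell C1 alone held 46.9% of the BAG1 reads at 199 CPM, and without it BAG1 passed 2-fold below both other protocols (log2 -1.36 and -1.45).

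HSPB1 (HSP27, ENSG00000106211, chromosome 7, 76302673 to 76304295) is the only small heat shock protein of the list and an estrogen-responsive gene in breast cancer cells. It ran from 114 to 1705 CPM over G&T cells with a median of 401, from 499 to 2225 over Takara cells with a median of 886, and from 445 to 3091 over NEB cells with a median of 1270.0. Its coefficient of variation over cells (CV) was 83.9% in G&T and 50.1% in Takara, both well above the median of the list, and 64.3% in NEB, near the median. Without G&T cell H1, the highest, HSPB1 passed 2-fold below Takara and NEB (log2 -1.01 and -1.30), which it did not with all cells (-0.68 and -0.97).

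HSF1 (ENSG00000185122, chromosome 8, 144291591 to 144314720), the factor itself, was expressed at a low and even level in Takara cells, from 19.5 to 37.2 CPM with a median of 29.3. In G&T its cells spread from 0 to 75.5 CPM with a median of 22.8, although the pooled levels of 27.9 and 30.2 CPM were alike. In NEB there were 2 reads, in 2 cells. Pooled HSF1 was 111-fold higher in G&T than in NEB (95% exact binomial interval 30.5 to 923) and 120.5-fold higher in Takara (33.1 to 999).

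The 8 TRiC subunits occur in equal numbers in its rings, and their transcripts spanned a few-fold range. Per kilobase, the highest subunit exceeded the lowest by 4.11-fold in G&T, 3.20-fold in Takara and 5.52-fold in NEB, with CCT6A or CCT3 at the top. The 8 log2 ratios of G&T over Takara ran from -0.77 for CCT7 to -0.04 for CCT2, and none passed 2-fold. Per read on nuclear protein-coding genes, CCT2 changed sign to 0.07 and the other 7 stayed below 0, while the median of all tested genes moved from -0.04 to 0.10. The exceptions of the ring were CCT3 and CCT7, at 3.94-fold and 3.00-fold higher in Takara than in NEB. CCT3 ran from 622 to 1002 CPM in Takara with a median of 816 and from 4.20 to 616 in NEB with a median of 193, so that every Takara cell was above every NEB cell by a narrow margin. It was lost per read on nuclear protein-coding genes (690.4 against 719.7 CPM of such reads) and at equal depth (576 against 607 CPM). A second annotated gene shares 52.7% of the canonical transcript of CCT5, and ACAT2 shares 19.3% of that of TCP1.

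Prefoldin has 6 subunits, and its transcripts were far less even. PFDN5, the top subunit under every protocol, exceeded the lowest by 21.3-fold per kilobase in G&T, 17.4-fold in Takara and 125-fold in NEB. The NEB value rests on 35 reads of PFDN6, 74.3% of them from cell H2, and was 433-fold without that cell. PFDN5 itself was steady, from 393 to 1007 CPM in G&T with a median of 515, from 281 to 487 in Takara with a median of 355 and from 251 to 684 in NEB with a median of 439. PFDN6 (ENSG00000204220, chromosome 6, 33289302 to 33298401) was the only chaperone gene past 2-fold higher in G&T than in Takara. It ran from 24.3 to 266 CPM over G&T cells with a median of 49.5, from 15.0 to 51.7 over Takara cells with a median of 23.3, and was found in 3 of 11 NEB cells, at up to 36.9 CPM. The 3.66-fold pooled gap between G&T and Takara included 3 G&T cells at 149, 183 and 266 CPM, and its log2 value of 1.83 was 1.52 without the highest, E2. PFDN4, a subunit of the same complex, was 2.97-fold higher in NEB than in Takara, from 0 to 294 CPM with a median of 152 against 30.2 to 80.6 with a median of 47.6.

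**Figure D3:**
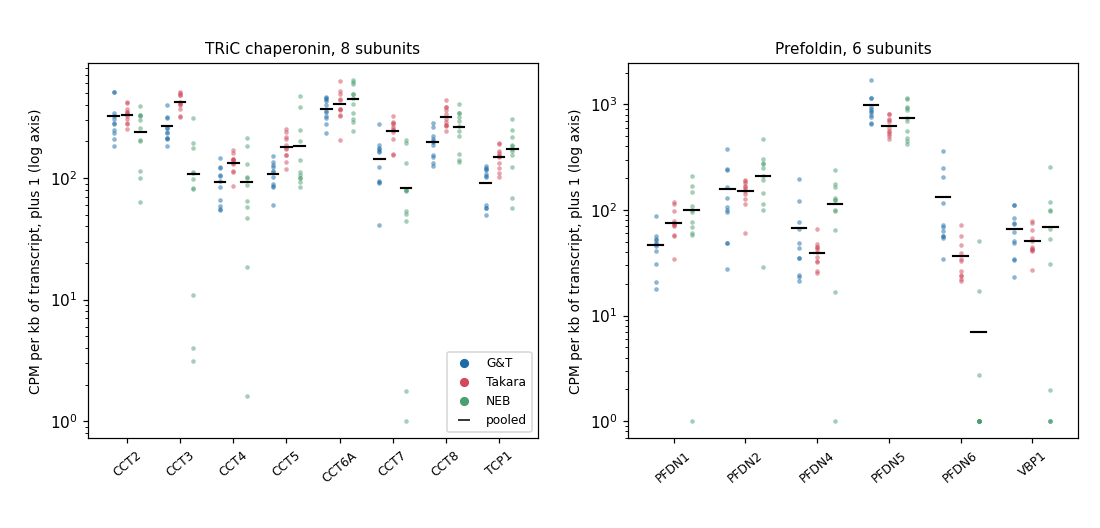
CPM per kb of canonical transcript, plus 1, on a log axis, for the 8 TRiC subunits (left) and the 6 prefoldin subunits (right), with 1 point per cell and a black bar at the pooled level. The pooled TRiC bars span 3.20-fold to 5.52-fold per protocol, and PFDN5 stands above the other prefoldin subunits under all 3.

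The mitochondrial chaperonin genes HSPD1 (HSP60) and HSPE1 (HSP10) lie head to head on chromosome 2. HSPD1 stood at 1018 (G&T), 753 (Takara) and 872 CPM (NEB) pooled, with cells from 626 to 1509 in G&T around a median of 1027, from 515 to 1484 in Takara around 724, and from 442 to 1243 in NEB around 896. HSPE1 was lowest in G&T, from 11.2 to 110 CPM with a median of 36.5, and highest in NEB, from 45.4 to 202 with a median of 120, a 2.43-fold pooled gap. Of its canonical transcript, 34.5% is shared with HSPE1-MOB4. The ratio of HSPD1 to HSPE1 per kilobase had a median of 4.83 in G&T cells, 2.70 in Takara cells and 1.71 in NEB cells. HSPA9 (mortalin) was at 462 CPM in G&T and 472 in Takara, each past 2-fold above the 207 in NEB.

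Counted over the list, the gaps between protocols can be set beside those of all tested genes, which are genes at 5 CPM or more in 1 protocol of the pair. All 41 chaperone genes passed this filter in each pair. Between G&T and Takara, 1 chaperone gene was over 2-fold higher in G&T (20.2% of 10657 tested genes) and 6 in Takara (19.4%), the latter being FKBP4, STIP1, BAG3, AHSA1, HSPA8 and DNAJA2. These counts are 2.44% and 14.6% of the list, both below the shares of the tested genes. The median log2 ratio of G&T over Takara was -0.55 over the list and -0.04 over tested genes, and 33 of 41 ratios were below 0. None of the 41 had every G&T cell above every Takara cell (0.901% of tested genes), and 2, FKBP4 and AHSA1, had every Takara cell above every G&T cell (1.74%).

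Between G&T and NEB, 10 chaperone genes were over 2-fold higher in G&T (42.2% of 10801 tested genes) and 6 in NEB (22.2%). The 10 were CDC37, HSF1, PFDN6, BAG3, FKBP4, DNAJA1, CCT3, STIP1, HSPA1B and HSPA9, and the 6 were DNAJB6, CHORDC1, ST13, HSPE1, DNAJA2 and PFDN1. The PFDN1 call was lost without NEB cell A1, at log2 -0.93. The shares of the list, 24.4% and 14.6%, both lay below those of the tested genes. None of the list had every NEB cell above every G&T cell (1.41% of tested genes). The median log2 ratio was -0.06 over the list and 0.52 over tested genes.

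Between Takara and NEB, 16 chaperone genes were over 2-fold higher in Takara (41.5% of 10500 tested genes) and 5 in NEB (25.2%). The 5 were PFDN4, HSP90AA1, DNAJB6, ST13 and CHORDC1. At 39.0% and 12.2% of the list, the first share was near the background and the second below it. Every Takara cell was above every NEB cell for 5 genes, BAG3, CCT3, CDC37, HSF1 and FKBP4, or 12.2% of the list against 10.7% of tested genes. The median log2 ratio was 0.01 over the list and 0.42 over tested genes. The medians of both comparisons with NEB lay near 0 and changed sign with the scaling of the libraries. The pairs of protocols share cells, so these 3 comparisons are not independent of each other.

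**Figure D4:**
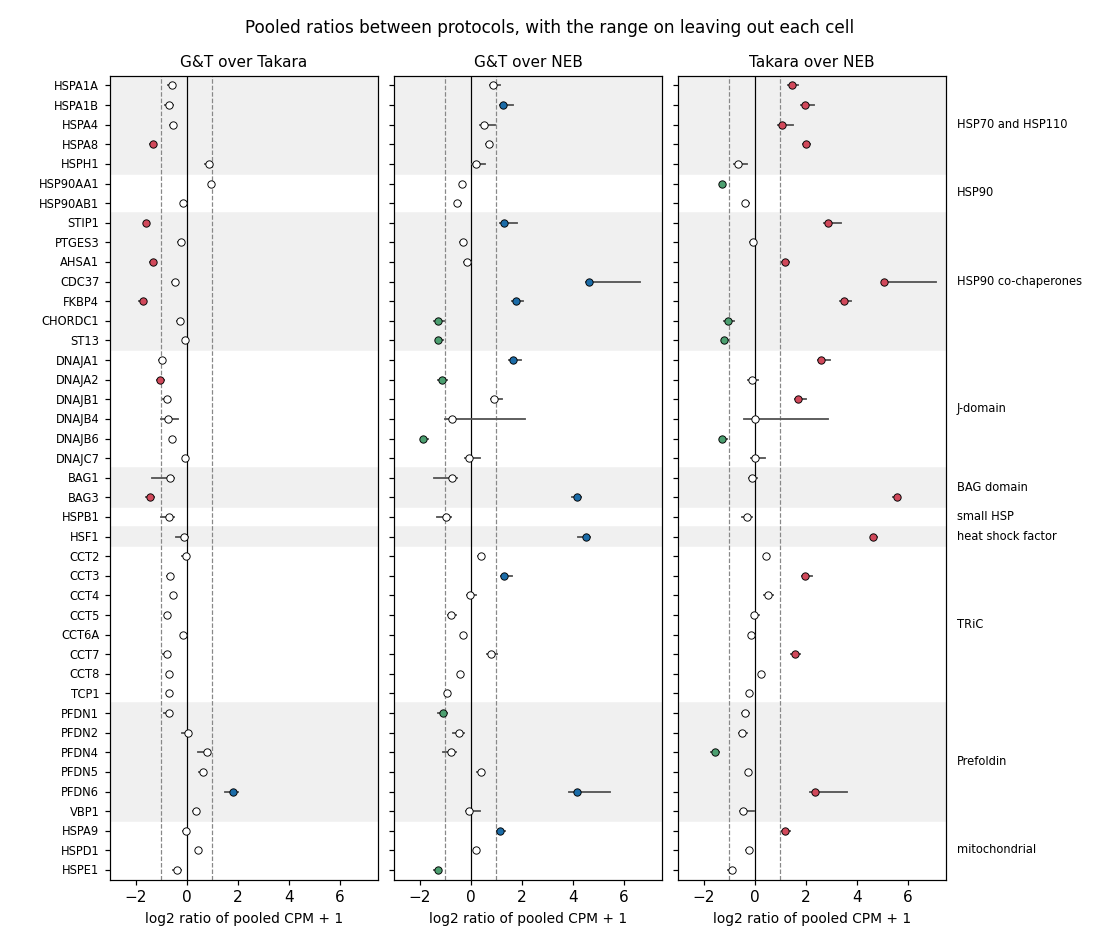
Log2 ratio of the pooled CPM plus 1 for each of the 41 genes in the 3 pairs of protocols, grouped by role, with bars from the lowest to the highest ratio on leaving out each cell in turn. Filled points are past 2-fold (dashed lines) and take the colour of the higher protocol as in the other plots, blue for G&T, red for Takara and green for NEB. The widest bars, of CDC37, DNAJB4 and PFDN6, are genes whose NEB reads came from few cells.

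No gap past 2-fold appeared in any pair for 17 of the 41 genes, among them HSP90AB1, HSPD1, HSPB1, PTGES3, PFDN2, PFDN5, VBP1 and 6 of the 8 TRiC subunits. Of these 17, HSPB1, BAG1, TCP1 and DNAJB4 passed 2-fold in a pair when 1 cell was left out. The pooled level was highest in Takara for 20 genes, in NEB for 17 and in G&T for 4. The same counts were not made over all tested genes, so neither is read as particular to the list.

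The base composition of the transcripts moved with these gaps. The canonical transcripts of the 41 genes have a GC content of 30.7% to 65.3% with a median of 45.3%, against 47.3% for tested genes. The Spearman correlation of the log2 ratio with GC content over the 41 genes was 0.54 for G&T over NEB, 0.60 for Takara over NEB and -0.30 for G&T over Takara. Over all tested genes it was 0.61, 0.63 and -0.15, in the same direction as over the list. These are correlations across genes of the same libraries, and genes are not independent replicates. Without BAG3, CDC37, HSF1 and PFDN6, chosen after their values were seen, the correlations with NEB were 0.41 and 0.49. The part of base composition in any single gap was not tested.

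Of the 15 chaperone genes with a GC content of at least 50%, 12 were over 2-fold higher in Takara than in NEB and 0 the other way, with a median log2 ratio of 1.97 (2.51 for tested genes of this class). These are 80.0% and 0% of the class, where 73.7% and 6.92% of the 4235 tested genes with such a GC content were past 2-fold. Of the 26 under 50%, 4 were higher in Takara and 5 in NEB, with a median of -0.13 (-0.49 for tested genes). These are 15.4% and 19.2%, against 19.8% and 37.3% of 6204 tested genes. The 3 GC-rich genes without a gap were HSPB1, PFDN5 and PFDN2, with transcripts of 777, 596 and 598 bases. The Spearman correlation of transcript length with the ratio of Takara over NEB was 0.01 over the list and -0.22 over all tested genes. The part of length in these gaps was not tested. HSPB1 has the highest GC content of the list at 65.3%, and its pooled level was 1194 CPM in NEB and 974 in Takara. PFDN6, at 734 bases and 54.9% GC, was over 2-fold higher in Takara than in NEB. Its 35 NEB reads came mostly (74.3%) from cell H2. DNAJA1, at 40.8% GC, and HSPA8, at 45.3%, were below 50% and higher in Takara than in NEB by 6.22-fold and 4.07-fold.

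The middle 90 bases of the coding sequences are shown for BAG3, PFDN6 and CDC37, which had few or no reads in NEB, and for ST13, DNAJB6 and CHORDC1, which were highest there. The stretches are given 5′ to 3′ in lower case, from the GENCODE 44 canonical transcripts. They cover coding bases 818 to 907 (BAG3), 149 to 238 (PFDN6), 523 to 612 (CDC37), 509 to 598 (ST13), 445 to 534 (DNAJB6) and 454 to 543 (CHORDC1). The whole coding sequences hold 60.9% (BAG3), 53.5% (PFDN6), 59.2% (CDC37), 47.1% (ST13), 50.1% (DNAJB6) and 40.3% (CHORDC1) G and C, so that DNAJB6 came close to PFDN6. The stretches themselves hold 70% (BAG3), 58.9% (PFDN6), 52.2% (CDC37), 50% (ST13), 43.3% (DNAJB6) and 42.2% (CHORDC1). CDC37 and ST13 are thus nearly alike in them, although their transcripts hold 60.0% and 39.6%.
BAG3: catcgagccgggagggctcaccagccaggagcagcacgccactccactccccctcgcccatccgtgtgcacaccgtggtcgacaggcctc
PFDN6: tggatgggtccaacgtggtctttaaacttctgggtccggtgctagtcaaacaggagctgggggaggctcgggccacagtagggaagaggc
CDC37: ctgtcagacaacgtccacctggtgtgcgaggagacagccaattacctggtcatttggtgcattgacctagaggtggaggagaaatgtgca
ST13: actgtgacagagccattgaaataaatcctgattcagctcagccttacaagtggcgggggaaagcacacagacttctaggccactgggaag
DNAJB6: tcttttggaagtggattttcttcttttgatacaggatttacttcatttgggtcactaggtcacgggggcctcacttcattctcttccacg
CHORDC1: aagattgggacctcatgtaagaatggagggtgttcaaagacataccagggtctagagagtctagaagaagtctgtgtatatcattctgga

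**Figure D5:**
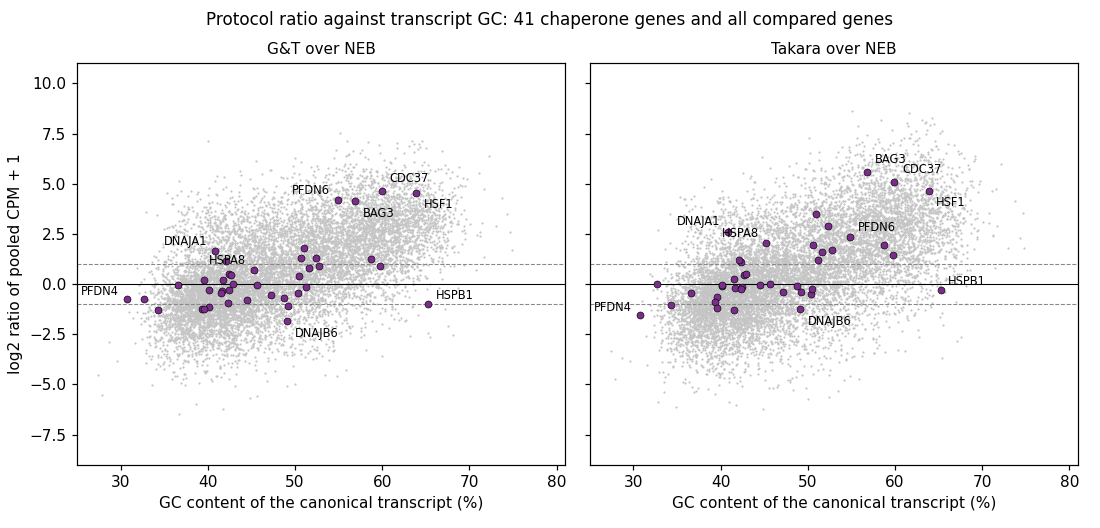
Log2 ratio of the pooled CPM plus 1 against the GC content of the canonical transcript, for G&T over NEB (left) and Takara over NEB (right), with the 41 chaperone genes in purple and all tested genes in grey. Both sets rise to the right, and HSPB1, the rightmost chaperone gene at 65.3%, lies below 0 in both panels (-0.97 and -0.29).

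Within a protocol, the chaperone genes had a lower median CV over cells than all genes. It was 41.8% (G&T), 29.6% (Takara) and 68.9% (NEB), against 78.0%, 56.2% and 144% for all genes at 5 CPM or more. Among genes over 100 CPM the medians lay closer, at 33.2%, 26.0% and 59.5% for the list against 46.2%, 29.6% and 65.6%. HSP90AA1 had the lowest CV of the list in G&T (20.9%) and NEB (23.4%), and HSPA9 in Takara (15.7%). The highest CVs among genes with reads in every cell were those of BAG1, PFDN6 and PFDN4 in G&T, of HSPA1B, HSPB1 and HSPA8 in Takara, and of CCT3, CHORDC1 and CCT4 in NEB. CCT4, a TRiC subunit, ran from 1.47 to 503 CPM over NEB cells with a median of 204.

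In Takara and NEB cells, the level of HSPA8 was lower where the share of reads on mitochondrial genes was higher. That share ran from 7.91% to 13.4% over Takara cells, from 7.90% to 10.7% over NEB cells and from 9.31% to 22.0% over G&T cells. The Spearman correlation of HSPA8 with it was -0.87 in Takara and -0.89 in NEB, and -0.25 in G&T (n = 11 cells each, as a description, since the cells share a run). Pearson's r was -0.81, -0.84 and -0.08. Without the 2 cells farthest from the median share, the Spearman values were -0.88, -0.83 and -0.27. Both measures share the reads on genes as denominator, but with HSPA8 per read on nuclear protein-coding genes the values were -0.85, -0.90 and -0.12. A correlation at or below that of HSPA8 was held by 0.0613% of the 6521 genes with reads in every Takara cell. For NEB the share was 0.0731% of 1368 such genes, and for G&T it was 33.7% of 5547. Each share counts HSPA8 itself. A negative sign was not particular to HSPA8. The summed share of the chaperone genes, HSPA8 included, correlated with mitochondrial reads at -0.81 (Takara), -0.52 (NEB) and -0.65 (G&T). Of chaperone genes with reads in every cell, 34 of 40 (Takara), 17 of 21 (NEB) and 27 of 37 (G&T) were below 0. Over all such genes, 52.4%, 45.1% and 62.3% were. The relation of HSPA8 was noticed in these same cells, so its rank among all genes is a description and no independent test. What moves both measures was not tested. The Spearman correlation of HSPA8 with reads on genes was -0.13 (Takara), 0.23 (NEB) and 0.02 (G&T), and that with the number of genes detected was 0.55, 0.52 and 0.81. With reads on genes per spike-in read it was 0.58, 0.38 and 0.41. The part of cell yield in the HSPA8 level was not tested.

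In Takara, the chaperone genes with the highest correlation with HSPA8 over the 11 cells were CCT5 (Spearman 0.87), STIP1 (0.80), HSP90AA1 (0.79), HSPA1A (0.78) and CCT6A (0.76). The lowest were ST13 (-0.59), AHSA1 (-0.31), HSPE1 (-0.29), CCT7 (-0.23) and PFDN5 (-0.17). Co-chaperones and TRiC subunits thus stood at both ends. The 7 heat-inducible genes of the list (HSPA1A, HSPA1B, DNAJB1, HSPH1, BAG3, HSPB1 and HSP90AA1) had a median pairwise correlation of 0.37, above 0 in 18 of 21 pairs. The median over all gene pairs was 0. Over all chaperone genes with reads in every Takara cell it was 0.16, above 0 in 525 of 780 pairs, and over TRiC 0.23, in 22 of 28. Positive values were thus not particular to the heat-inducible genes, and the split of reads between HSPA1A and HSPA1B is uncertain. In G&T, 5 of them had reads in every cell, and their 10 pairs had a median of 0.05, as did all gene pairs (0.05). In NEB only 2 of them did, with a correlation of -0.35. The 6 prefoldin genes had a median of 0.47 in G&T (14 of 15 pairs above 0) and of 0.11 in Takara. All these are descriptions over 11 cells of 1 run, and the part of cell quality in them was not tested.

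Other genes of the chaperone network, listed by name, were counted the same way, and 54 of them were found in the tables. The genes named below were chosen after their values were seen. Between G&T and Takara, 4 of 50 tested genes were over 2-fold higher in G&T and 14 in Takara, with a median log2 ratio of -0.49. These are 8% and 28%, against 20.2% and 19.4% of all tested genes. Between G&T and NEB the counts were 18 and 13 of 48 (median 0.28), or 37.5% and 27.1% against 42.2% and 22.2%. Between Takara and NEB they were 18 and 9 of 49 (median 0.69), or 36.7% and 18.4% against 41.5% and 25.2%. HSPBP1, an HSP70 cofactor, and PPP5C, a phosphatase that binds HSP90, stood at 93.3 and 85.8 CPM in Takara and had no read in NEB. BAG4 was at 596 CPM in NEB against 26.9 in G&T and 25.7 in Takara, with reads in every cell. HSPA6, the strictly heat-induced HSP70, had no read in G&T or NEB and was at 0.341 CPM in Takara, from 1 cell, and CRYAB was at 2.90 CPM in Takara and without reads elsewhere.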

How the data were processed

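Per the labels and the methods of the study, the authors ran 2 rounds of Trim Galore on the reads, with FastQC checks, mapped them by STAR against GRCh38, and deposited a table of raw gene counts for each protocol, with no normalization and no filter. Which annotation release and strand setting were used for counting is not given in the sources used here. Each table lists 60279 genes and 92 ERCC spike-ins, and reads with no gene were left out of all totals.

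All 40 cells were assigned to a protocol by their titles, and 7 wells were left out by the list that defined the cells, with all deposited cells as an alternative. From the counts, CPM of reads on genes was computed per cell and pooled over the 11 kept cells of a protocol, and 1 CPM was added before log2 ratios. A gene was tested in a pair at 5 CPM or more in 1 protocol and called past 2-fold. Fold values in the text are ratios of pooled CPM without the added 1. With 1 sample a group no test was made, and cells are not replicates. Intervals are 95% exact Poisson, 3 reads over the pooled cells served as the upper limit where no read was found, and depth ranged from 624772 to 1287911 reads on genes per kept cell. Canonical transcripts, lengths, GC content and overlaps came from GENCODE release 44 on GRCh38, matched by identifier for 56104 genes, which need not match the authors' release. Levels between genes are given per kilobase of canonical transcript.

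The members and lists were chosen with earlier results of these data known. Values are given for the 5 highest genes per kilobase, the 3 largest ratios per pair and direction and the 3 genes found in the fewest cells. They are also given for the 3 highest CVs among genes found in every cell, the heat-inducible genes and the 3 pairs HSPA1A and HSPA1B, HSPD1 and HSPE1, HSP90AA1 and HSP90AB1. For some of these, among them HSPE1, ST13, CHORDC1 and PFDN4, levels or cell ranges of some protocols are left out. Alternatives covered the cells kept, the pseudocount, the filter, TMM scaling, the denominator, the summary over cells, the fold, depth and leaving out each cell. On simulated counts, 93.0% (G&T and Takara), 91.5% (G&T and NEB) and 94.0% (Takara and NEB) of 200 changed genes were called, over 10657, 10801 and 10500 genes. Of the unchanged genes, 0.0574%, 0.189% and 0.117% were called. The simulation checks the steps of the calling only, and its shares do not measure how reliable the gaps between protocols are. TMM factors came from edgeR 4.0.16 under R 4.3.3. All other steps used pandas 2.3.3, numpy 2.4.6 and scipy 1.17.1 under Python 3.11.15, with plots by matplotlib 3.10.9. Random draws used seed 11.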

Additional observations from a re-analysis of the deposited data

Results flagged for a closer look

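Reads on chaperone genes were also present in the 7 wells left out of the comparisons. In G&T, well C2 had 7050 such reads on 35 of the 41 genes and well F1 had 9229 on 40 genes, 0.999% and 1.58% of their reads on genes. In Takara, wells C2 and F1 had 43 and 11 reads on 10 and 7 genes, in libraries with 91.3% and 96.7% of reads on ERCC spike-ins. In NEB, well B2 had 3828 reads on 14 genes, well F1 had 27 on 11 genes and well F2 had 9620 on 35 genes, with 28.4%, 99.7% and 5.95% of reads on spike-ins. These wells are given because they hold signal above the 3 reads that a count of 0 allows and entered none of the main comparisons, only the alternative with all deposited cells. Empty-well controls were not analysed here.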

How the results depend on the processing

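Of 44 gene comparisons past 2-fold, 308 values were recomputed with all deposited cells, other pseudocounts, TMM scaling, the nuclear protein-coding denominator and the mean or median over cells. None changed sign, and 301 stayed past 2-fold. The 7 that did not belong to DNAJA2 (both calls), HSPA1B and PFDN1 in G&T against NEB and CHORDC1 in Takara against NEB. Over the whole list, 115 of 126 alternatives stayed within 1.5 times a count or within the spread between cells.

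The exceptions were these. With the nuclear protein-coding denominator, 2 genes were over 2-fold higher in G&T than in Takara, 1 had every Takara cell above every G&T cell, and the summed level in G&T was 21699 CPM. At 1.5-fold, 5 genes were higher in G&T than in Takara, 19 in Takara than in G&T and 12 in NEB than in G&T. With all deposited cells, 0 genes had every Takara cell above every G&T cell and 0 every Takara cell above every NEB cell. The genes detected then averaged 35.7 in Takara and 30.1 in NEB, and the median CV in Takara was 54.5%. These wells include 2 Takara libraries of spike-in reads. With the nuclear denominator the separation lost was that of AHSA1, and CCT3 lost its separation between Takara and NEB with that denominator and at equal depth.

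Leaving out each cell in turn, the genes over 2-fold higher numbered 1 to 2 (G&T over Takara), 5 to 7 (Takara over G&T), 10 to 12 (G&T over NEB), 5 to 8 (NEB over G&T), 15 to 16 (Takara over NEB) and 4 to 6 (NEB over Takara). The count of 1 became 2 without Takara cell A2, B2 or D2 or G&T cell E2, each time through HSP90AA1 (log2 1.00 to 1.05). Genes with every cell above numbered 0 to 1, 2 to 3, 1 to 3, 0 to 1, 5 to 7 and 1 to 1 in the same order. Of the changes past 1.5 times, HSP90AA1 was gained for G&T over Takara without G&T cell E2, BAG3 and PFDN6 for G&T over NEB without G&T cell B2, HSF1 without G&T cell H1, PFDN6 without NEB cell H2, and DNAJB6 for NEB over G&T without NEB cell B1. The median log2 ratios ran from -0.59 to -0.48 (G&T over Takara), -0.18 to 0.13 (G&T over NEB) and -0.11 to 0.19 (Takara over NEB). With TMM scaling and the nuclear denominator the median of all tested genes moved from 0.52 to 0.41 and 0.65 for G&T over NEB. The list's median was then -0.16 and 0.02, against -0.03 and -0.02 for Takara over NEB.

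No paired analysis was possible because wells of different plates share only a name, and no test was made. The correlations without 2 cells, without 4 genes and with the nuclear denominator, the folds over unshared HSPA1A windows and the prefoldin ranges without each cell were chosen after seeing the data. Levels under about 1 CPM rest on single reads, and 1 cell can hold all reads of a gene in NEB.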
